A study of Mus musculus with 2 samples.

Results

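A set of 10 imprinted genes is described here, the fetal growth genes Dlk1, Meg3, Igf2, H19, Igf2r, Peg3, Plagl1, Cdkn1c, Grb10 and Mest. They were chosen by name as known imprinted genes, and all 10 were found among the 16390 named genes of the arrays, each with 1 probe. Meg3 is listed on the platform under its older symbol Gtl2. Mouse liver RNA lacking the membrane metalloproteinase MMP-14 was set against wild-type RNA on 2 arrays read in 2 colours, with the knockout in Cy3 and the wild type in Cy5 on both. The first array carried MMP-14 KO and wild-type Dlk-positive cells, sorted from fetal liver as CD45-, CD71- and Ter119-, and each genotype's RNA came from 100000 cells out of 3 livers. These cells are labelled E14 in the sample labels and E14.5 in the design text. The second array carried MMP-14 KO and wild-type whole liver, with RNA mixed from 2 livers per genotype, which the labels call P1 and the design text calls E18.5. The conflict was not settled, and the label P1 is used. The strain and the deleted part of Mmp14 are not given in the sources used here.

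An imprinted gene is transcribed mainly from the allele inherited from 1 parent. Dlk1, Igf2, Peg3, Plagl1 and Mest are expressed from the paternal allele in the mouse, and Meg3, H19, Igf2r, Cdkn1c and, outside the brain, Grb10 from the maternal allele. Many such genes act on growth before birth, in opposite directions: Igf2 encodes a growth factor that Igf2r removes, while Cdkn1c and Grb10 restrain proliferation and insulin signalling. Several are abundant in fetal liver and are shut down after birth, and Dlk1, a transmembrane protein with EGF-like repeats, is the antigen by which fetal hepatoblasts are sorted.

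Of the 10 genes, 8 had at least 1 promoter window in a RefSeq table of build GRCm38.p6, 15 windows in all, each with 250 bases before and 50 after a transcription start. H19 and Cdkn1c are named only. The windows were searched on both strands for TGCCGC, the core recognised by the imprint-maintaining zinc finger protein ZFP57 when methylated, and for GGGGCCCC, a palindrome within the GC-rich consensus reported for PLAGL1. TGCCGC was found in 6 of the 15 windows, 2 of which overlap, from 5 genes, and in 11.6% of all 32851 windows of this length. GGGGCCCC was found in 1 of the 15 windows, that of Peg3, and in 1.08% of all windows. A match describes the letters only, and no methylation or binding was measured.

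Windows of 5 genes are shown because these genes carry the contrasts below: Dlk1 and Meg3 share a domain on chromosome 12, Plagl1 and Mest were lower in the P1 knockout, and Peg3 was higher there. Capitals mark TGCCGC, read as GCGGCA where it lies on the other strand, and GGGGCCCC. The windows are chr12:109452573-109452872 (plus strand) for Dlk1, chr12:109540746-109541045 (plus) for Meg3, chr10:13090582-13090881 (plus) for Plagl1, chr6:30737800-30738099 (plus) for Mest and chr7:6730370-6730669 (minus) for Peg3, each printed along the gene's own strand.
Dlk1: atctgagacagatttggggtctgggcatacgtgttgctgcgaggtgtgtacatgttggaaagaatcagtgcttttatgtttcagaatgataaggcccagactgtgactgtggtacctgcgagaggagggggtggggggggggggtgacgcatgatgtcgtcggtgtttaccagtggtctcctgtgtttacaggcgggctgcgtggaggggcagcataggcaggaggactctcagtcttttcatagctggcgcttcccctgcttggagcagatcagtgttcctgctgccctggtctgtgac
Meg3: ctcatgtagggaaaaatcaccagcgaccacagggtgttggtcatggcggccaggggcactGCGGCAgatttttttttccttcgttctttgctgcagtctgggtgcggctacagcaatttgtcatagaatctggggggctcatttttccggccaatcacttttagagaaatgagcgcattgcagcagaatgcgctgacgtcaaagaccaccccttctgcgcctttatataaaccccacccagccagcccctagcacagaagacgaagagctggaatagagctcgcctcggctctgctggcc
Plagl1: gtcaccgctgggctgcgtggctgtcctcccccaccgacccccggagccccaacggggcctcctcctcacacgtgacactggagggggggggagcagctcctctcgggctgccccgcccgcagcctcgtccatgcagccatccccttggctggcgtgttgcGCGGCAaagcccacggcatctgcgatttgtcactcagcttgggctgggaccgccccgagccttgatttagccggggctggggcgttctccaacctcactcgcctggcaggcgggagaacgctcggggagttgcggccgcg
Mest: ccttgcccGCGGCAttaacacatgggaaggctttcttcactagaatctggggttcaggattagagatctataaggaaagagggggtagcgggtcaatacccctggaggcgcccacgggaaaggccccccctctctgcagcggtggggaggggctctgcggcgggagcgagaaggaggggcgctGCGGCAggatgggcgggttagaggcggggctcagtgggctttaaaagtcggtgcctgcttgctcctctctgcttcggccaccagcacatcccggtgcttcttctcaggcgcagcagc
Peg3: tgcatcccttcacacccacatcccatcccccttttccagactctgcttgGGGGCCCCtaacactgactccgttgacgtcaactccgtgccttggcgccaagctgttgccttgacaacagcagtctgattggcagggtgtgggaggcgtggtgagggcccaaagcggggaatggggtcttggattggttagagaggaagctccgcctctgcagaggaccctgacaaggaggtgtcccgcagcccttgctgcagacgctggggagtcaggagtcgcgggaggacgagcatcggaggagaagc
The Dlk1 window held neither sequence. Counted from the start site, the match began at -190 in Meg3, at -90 in Plagl1, at -242 and -67 in Mest and at -201 in Peg3.

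Of the genes, 4 also hold microRNAs within their RefSeq boundaries, 9 mature sequences in all with 9 different seeds. They are shown because they lie within genes whose levels are given below. Neither their processing from these transcripts nor the mature forms were measured here. Seeds, bases 2 to 8, are in capitals. The host is H19 for miR-675, Igf2 for miR-483, Mest for miR-335 and Meg3 for miR-770 and miR-1906.
mmu-miR-675-5p: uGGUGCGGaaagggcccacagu
mmu-miR-675-3p: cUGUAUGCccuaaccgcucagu
mmu-miR-483-5p: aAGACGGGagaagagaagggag
mmu-miR-483-3p: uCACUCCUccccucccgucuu
mmu-miR-335-5p: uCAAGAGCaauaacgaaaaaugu
mmu-miR-335-3p: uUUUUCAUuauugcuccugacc
mmu-miR-770-5p: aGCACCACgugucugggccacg
mmu-miR-770-3p: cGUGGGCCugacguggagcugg
mmu-miR-1906: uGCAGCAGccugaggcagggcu

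Each comparison rests on 1 array, so there is no replicate error, no test and no p-value, and the number of arrays limits the precision. No array had its dyes swapped, so an effect of the dye on a probe cannot be told apart from genotype. A channel counted as detectable above the mean of the blank spots plus 2 SD, which on the E14 array came to 85.1 (knockout) and 44.3 (wild type), and on the P1 array to 87.0 (knockout) and 50.5 (wild type). Each ratio is the log2 of the knockout signal divided by the wild-type signal after background correction and loess normalisation, and a fold of at least 1.5 is the size at which genes were counted. As the only spread available, different probes of a gene had an SD of 0.116 on the E14 and 0.226 on the P1 array. Mmp14 itself had a ratio of -1.13 in the E14 cells (132 in knockout and 131 in wild type before normalisation) and -1.30 in P1 liver (104 in knockout and 161 in wild type), and whether its probe lies in the deleted part is not known here.

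**Figure D1:**
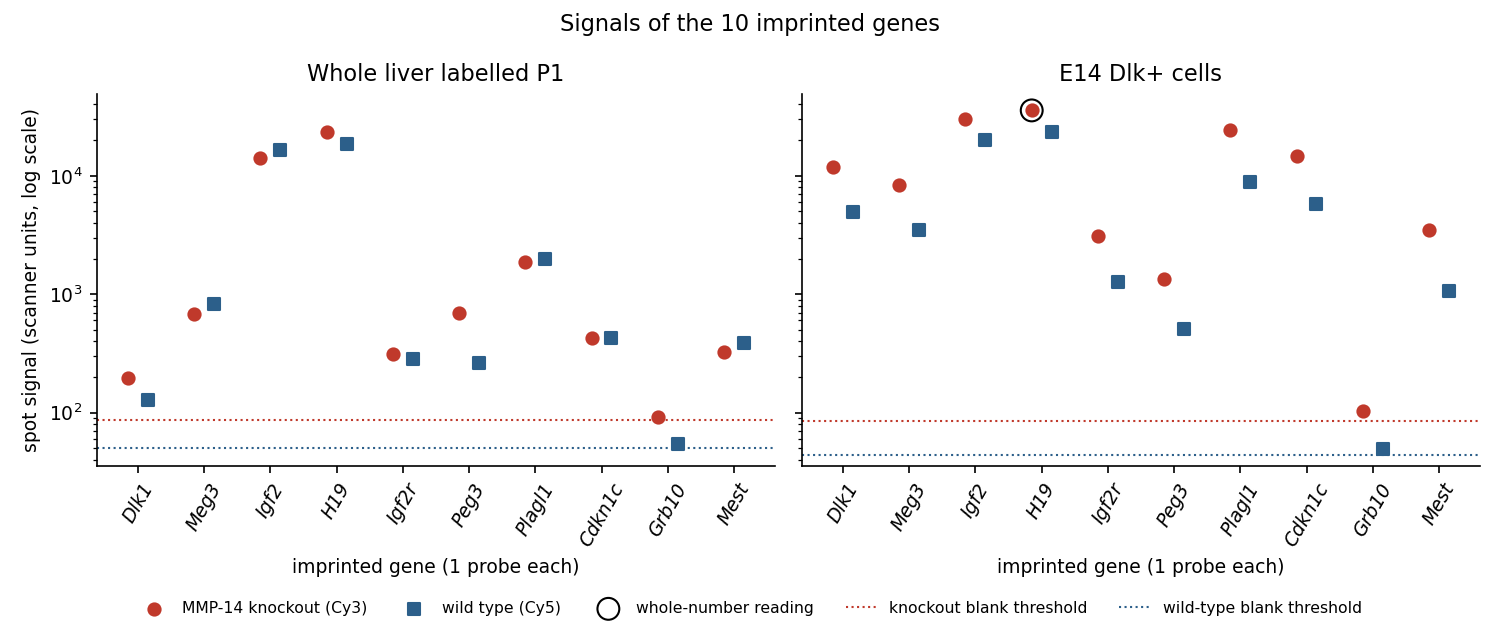
Spot signals of the 10 imprinted genes on a log axis in scanner units, for knockout (circles) and wild type (squares) in P1 whole liver (left) and E14 Dlk+ cells (right), 1 probe and 1 array each. Dotted lines are the blank thresholds, and the ring marks the whole-number reading of H19. Grb10 lies near the thresholds in all 4 channels, and knockout readings in E14 cells lie above wild-type readings throughout, as did those of the array as a whole.

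In the E14 cells 8 of the 10 genes differed by less than 1.5-fold, and the growth factor gene Igf2 and its neighbour H19 were lower in the knockout. None was at least 1.5-fold higher, which held for 0.307% of the 12705 genes detectable in both channels, and 2 were at least 1.5-fold lower, which held for 0.22% of them. At 2-fold none of the 10 was called, against 0.0157% of all genes higher and 0.0945% lower. By the authors' deposited table, again 0 of the 10 were at least 1.5-fold higher, against 5.38% of genes, and 2 were lower, Igf2 and H19 again, against 1.22%. The median ratio of the 10 genes was 0.03, against 0.01 for all genes. Knockout signals exceeded wild-type signals by a median factor of 2.19 over all detectable genes of this array before normalisation, and each raw signal below is to be read against that factor.

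Dlk1 had a signal of 11869 in knockout and 4971 in wild-type E14 cells. Its ratio was -0.03, with 34.2% of all genes lower. Dlk1 is the antigen of the sort in both genotypes, and the part of the gate in its level was not tested. Meg3, a non-coding RNA transcribed from the maternal copy of the same domain, gave signals of 8312 in knockout and 3470 in wild-type cells and a ratio of -0.02. Both genes of the chromosome 12 domain lay within the bulk of genes on this array, and with the local background used Meg3 stood at 1.22.

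Igf2 read 30286 in knockout and 20119 in wild-type E14 cells, a raw factor of 1.51. Its ratio was -0.70 (0.614-fold), and -0.76 in the authors' deposited table. H19, a maternally expressed non-coding RNA that shares enhancers with Igf2, read 35625 in knockout and 23499 in wild-type cells, a raw factor of 1.52. Its ratio was -0.70 as well, and -0.75 in the authors' deposited table. Only 0.157% and 0.165% of all genes had ratios below those of Igf2 and H19, so both stood in the low tail of the array.

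Both genes were read near the top of the range. The knockout reading of H19 was a whole number, a kind that began at 32697 in that channel and of which it held 22, and H19 ranked the 13th brightest probe there. Igf2 ranked the 34th brightest in the knockout and the 25th in the wild-type channel, with no whole-number reading. Among the 46 other genes with signals over 10000 in both channels, 45 had ratios below 0, the median was -0.47 and 18 were at least 1.5-fold lower. In these bright genes the knockout exceeded the wild type by a median raw factor of 1.77, below the 2.19 of all genes, and the part of brightness in the ratios of Igf2 and H19 was not tested. The hepatoblast genes Ttr (-1.36), Alb (-1.31), Afp (-1.26) and Apoa2 (-1.05), all read as whole numbers, were lower in the knockout as well. Of 11 hepatoblast markers only these 4 were at least 1.5-fold lower and none was higher, and the list had a median of -0.12. With each array centred on its median in place of loess, which raised the median of all genes on this array to 0.29, Igf2 stood at 0.06 and H19 at 0.07, or -0.23 and -0.22 relative to all genes, and the other bright genes had a median of 0.29.

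**Figure D2:**
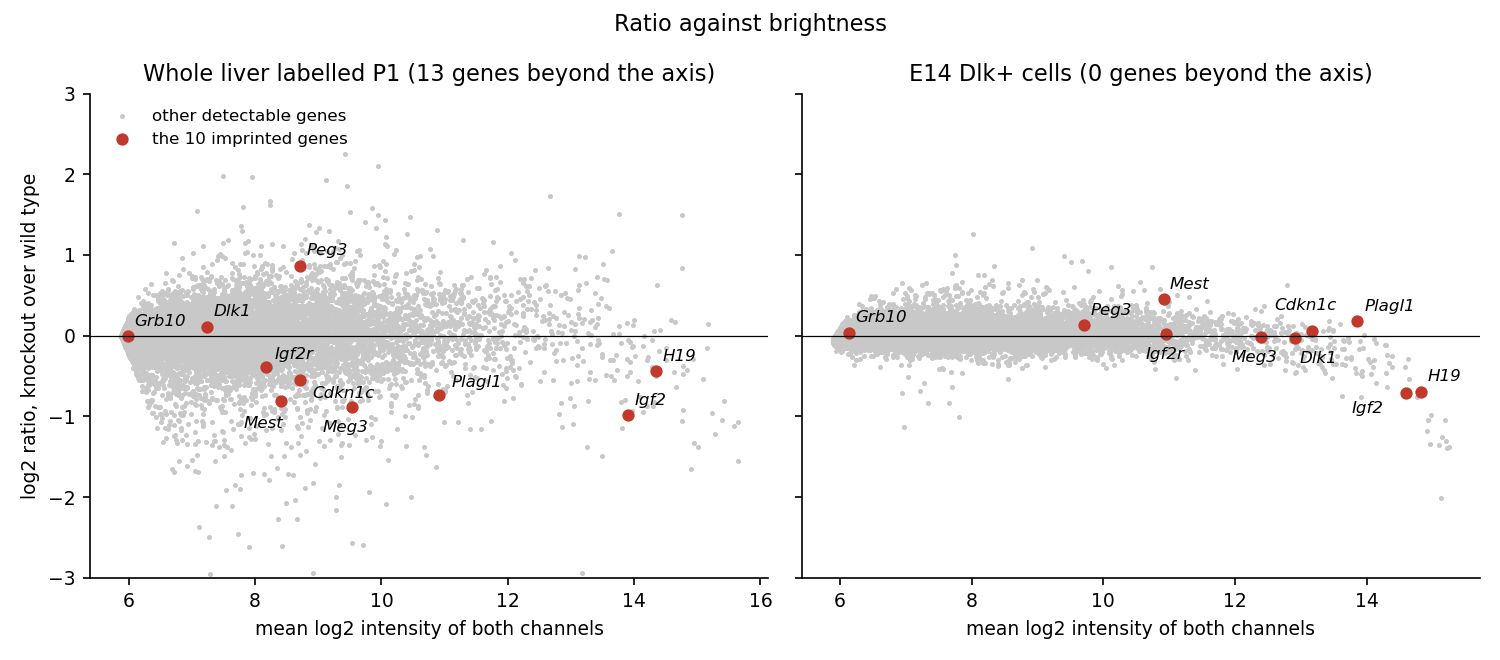
Log2 ratio of knockout over wild type against the mean log2 intensity of both channels for all genes detectable in both channels, in P1 whole liver (left) and E14 Dlk+ cells (right), with the 10 imprinted genes in red. In E14 cells Igf2 and H19, both at -0.70, lie in the bright tail where most genes fall below 0. In P1 liver Peg3, at 0.87, lies above the bulk and Mest, Meg3 and Plagl1 below it, short of the brightest genes.

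Mest had the highest ratio of the 10 genes in the E14 cells. It encodes a hydrolase-fold protein of the mesoderm and read 3507 in knockout and 1060 in wild-type cells. Its ratio was 0.45 (1.37-fold), short of the 1.5-fold size, and 0.40 in the authors' deposited table, with 0.819% of all genes higher. Its sign held in all 7 alternatives that could change a value, from 0.32 to 1.17.

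The other growth regulators lay close to 0 in the E14 cells. Plagl1, a zinc finger transcription factor that controls several imprinted genes, read 24473 in knockout and 8834 in wild-type cells, with a ratio of 0.18. Cdkn1c, the cyclin-dependent kinase inhibitor p57, read 14605 in knockout and 5769 in wild-type cells, with a ratio of 0.05. Peg3, a zinc finger protein of growth and maternal behaviour, read 1351 in knockout and 513 in wild-type cells, with a ratio of 0.13. None of the 3 reached 1.5-fold in either direction.

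Receptor and adaptor genes of the IGF pathway were likewise close to 0. Igf2r, which carries IGF2 to lysosomes, read 3101 in knockout and 1264 in wild-type cells, with a ratio of 0.02. Grb10, an adaptor that dampens insulin and IGF1 receptor signalling, read 104 in knockout and 49.7 in wild-type cells, 1.22 (knockout) and 1.12 (wild type) times the thresholds, with a ratio of 0.04. The authors' deposited table, which differs in both background and normalisation, gives 0.30 for it.

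Cell type markers of the E14 array give the setting for these ratios. The hepatoblast markers Afp and Alb were bright in both genotypes, Afp with 36583 in knockout and 35570 in wild-type cells, and all 11 hepatoblast markers on the array were detectable in both channels. Stellate cell and fibroblast markers were higher in the knockout, with 7 of 17 at least 1.5-fold higher, against 0.307% of all genes. Their median was 0.53 and their summed signal 29603 in knockout and 8652 in wild-type cells. Of the antigens the gate excludes, the leukocyte gene Ptprc (CD45) read 88.9 in knockout and 43.8 in wild-type cells, about the thresholds, and Tfrc (CD71) read 518 in knockout and 196 in wild-type cells, well above them, with a ratio of 0.17. Of 10 leukocyte markers 5 were detectable in both channels, with a median of 0.32, 4 above 0 and none at least 1.5-fold changed. The highest were S100a9 (0.49), Mpo (0.37) and S100a8 (0.32), from dim wild-type signals of 52.7, 58.2 and 64.8. In the authors' deposited table they stood at 1.52, 0.98 and 0.70, with Cd68 at -0.01, Csf1r at -0.38 and a median of 0.70. There 5.38% of all genes were at least 1.5-fold higher. Of the 9 mesothelial markers detectable in both channels, 2 were at least 1.5-fold lower, against 0.22% of all genes, the lowest being Upk3b at -1.01. Mest and the stromal markers lay on the same side of 0, and the part of the cell mix was not tested. In bulk RNA, fewer cells of a type and less RNA per cell cannot be told apart.

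In whole liver labelled P1, Igf2, Meg3, Mest and Plagl1 were lower in the knockout, Peg3 was higher, and the other 5 genes differed by less than 1.5-fold. The 4 of 10 at least 1.5-fold lower compare with a share of 4.12% of the 12715 genes detectable in both channels. Peg3 alone was at least 1.5-fold higher, 1 of 10, which held for 2.85% of all genes. At 2-fold none of the 10 was called, against 0.558% of all genes higher and 1.45% lower. In the authors' deposited table Peg3 was the 1 gene at least 1.5-fold higher, against 11.9% of genes, and Mest, Meg3 and Igf2 were the 3 lower, against 12.2%. The median of the 10 genes was -0.49, against 0.00 for all genes, and 2 of 10 were above 0. Before normalisation, knockout signals exceeded wild-type signals by a median factor of 1.56 on this array.

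Meg3 read 683 in knockout and 832 in wild-type P1 liver. Its ratio was -0.89 (0.541-fold), and -0.82 in the authors' deposited table, with 1.87% of all genes lower. Dlk1, from the same domain, read 197 in knockout and 128 in wild-type liver, 2.27 (knockout) and 2.53 (wild type) times the thresholds, and its ratio was 0.11. Meg3 was thus lower where Dlk1 was not, a difference within the domain that 1 array cannot test.

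Igf2 read 14213 in knockout and 16515 in wild-type P1 liver. Its ratio was -0.98 (0.505-fold), the lowest of the 10 genes, and -0.66 in the authors' deposited table. H19 read 23529 in knockout and 18535 in wild-type liver, for which the ratio was -0.44, against -0.09 as deposited by the authors in their own table. Neither had a whole-number reading on this array, although Igf2 ranked the 154th brightest probe of the knockout and the 69th of the wild-type channel, and H19 the 65th and the 55th. Of the 76 other genes over 10000 in both channels, 63 had ratios below 0, with a median of -0.41 after loess but -0.05 in the authors' deposited table, so the size for bright genes depended on the scaling. With the local background used in the correction, Igf2 turned to 2.80: its local background was 73.3% of the spot signal for the knockout and 97.8% for the wild type.

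Plagl1 read 1879 in knockout and 1991 in wild-type P1 liver, a log2 ratio of -0.74 (0.599-fold), where the authors' deposited table has -0.55. Mest read 323 in knockout and 384 in wild-type liver, a log2 ratio of -0.81 (0.572-fold), where the authors' deposited table has -0.92. Cdkn1c read 429 in knockout and 425 in wild-type liver, with a ratio of -0.55 (0.685-fold), just short of 1.5-fold, and -0.56 in the authors' deposited table. These 3 genes, like Meg3, read well below the top of the range and kept a negative sign in all 7 alternatives that could change a value. Under median centring Plagl1 stood at -0.26, Mest at -0.55, Cdkn1c at -0.25 and Meg3 at -0.50, and none of the 4 reached 1.5-fold. With the local background used, Plagl1 (-0.49) and Meg3 (-0.22) were short of 1.5-fold, and Mest (-1.03) and Cdkn1c (-0.67) were past it.

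Peg3 read 689 in knockout and 260 in wild-type P1 liver, a raw factor of 2.65 where the median gene had 1.56. Its ratio was 0.87 (1.82-fold), and 1.08 (2.11-fold) in the authors' deposited table, with 0.857% of all genes higher. It stayed positive in all 7 alternatives that could change a value, from 0.55 with the local background used to 1.16 under median centring. At 0.55 it was short of 1.5-fold, and the 1 gene counted as higher in that setting was Igf2. After loess without the local background, Peg3 was the only 1 of the 10 genes at least 1.5-fold higher on either array.

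Igf2r and Grb10, the other maternally expressed members of the IGF pathway, differed less in P1 liver. Igf2r read 312 in knockout and 284 in wild-type liver, with a ratio of -0.39 (0.761-fold). Grb10 read 91.8 in knockout and 54.8 in wild-type liver, 1.06 (knockout) and 1.09 (wild type) times the thresholds, with a ratio of -0.01. By parental origin, 3 of the 5 paternally expressed genes were at least 1.5-fold lower and 1 higher, with a range from -0.98 to 0.87 and a median of -0.74. Of the 5 maternally expressed genes 1 was lower, with a range from -0.89 to -0.01 and a median of -0.44. The paternal genes thus held both ends of the range. Over all genes 4.12% were lower and 2.85% higher, and a difference by parental origin was not tested.

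**Figure D3:**
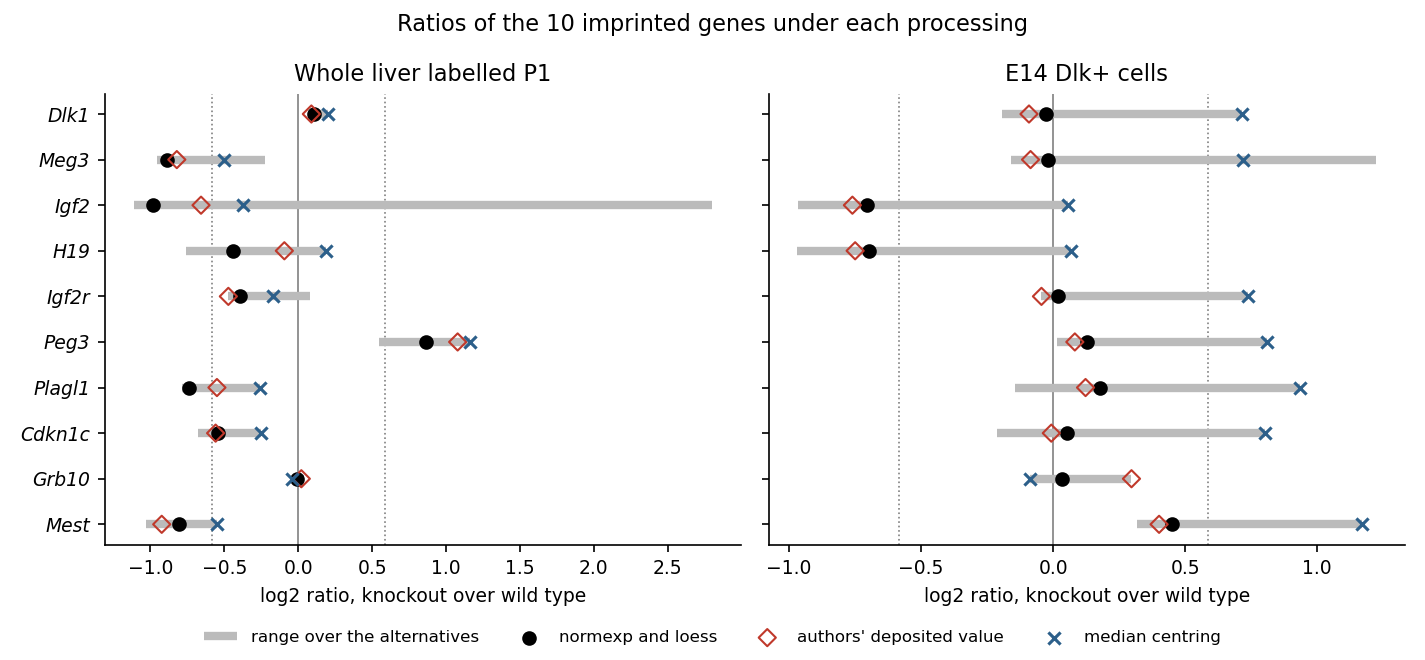
Log2 ratio of knockout over wild type for each imprinted gene in P1 whole liver (left) and E14 Dlk+ cells (right) after normexp and loess (dots), in the authors' deposited table (diamonds) and under median centring (crosses), with grey bars for the range over all alternatives and dotted lines at 1.5-fold. In P1 liver Peg3 stays above 0, and Meg3, Mest, Plagl1 and Cdkn1c below it, under every setting shown, whereas in E14 cells median centring shifts all but Grb10 to the right.

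Other tissue signals differed between the P1 channels beside these genes. Of 14 lung epithelial markers, 9 were detectable for the knockout and 14 for the wild type, with a summed signal of 1534 in knockout and 43113 in wild-type liver, and the 9 detectable in both were at least 2-fold lower in the knockout. Sftpc, the surfactant protein C gene, stood at -7.85. Of 17 stellate and fibroblast markers 5 were at least 1.5-fold lower, among them Acta2 (-2.11) and Col3a1 (-1.93), with sums of 4974 in knockout and 5468 in wild-type liver. The median of the 17 was -0.14, and 5 of them were above 0. At least 1.5-fold lower, as 4.12% of all genes were, were also 4 of 8 endothelial markers (median -0.59) and 5 of 8 erythroid markers (median -0.67). Among 11 hepatoblast markers 5 were as well, Ttr (-1.65), Epcam (-1.23), Alb (-1.12), Tbx3 (-0.90) and Apoa2 (-0.80), with a median of -0.01, and among 6 detectable mesothelial markers 2 were, Podxl (-1.22) and Msln (-1.08). Meg3, Igf2, Mest and Plagl1 were lower in the same channel as these markers, and the part of other cell types' RNA in their ratios was not tested. By the loess ratios given here, no gene of these 6 lists was at least 1.5-fold higher in the knockout, against 2.85% of all genes. In the authors' deposited table Hand2 (1.48) and Met (1.09) were, against 11.9% of genes. Under median centring Afp (0.80), Hnf4a (0.78) and Tfrc (0.83) were, against 10.2%. The part of the cell mix in the ratio of Peg3 was not tested.

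**Figure D4:**
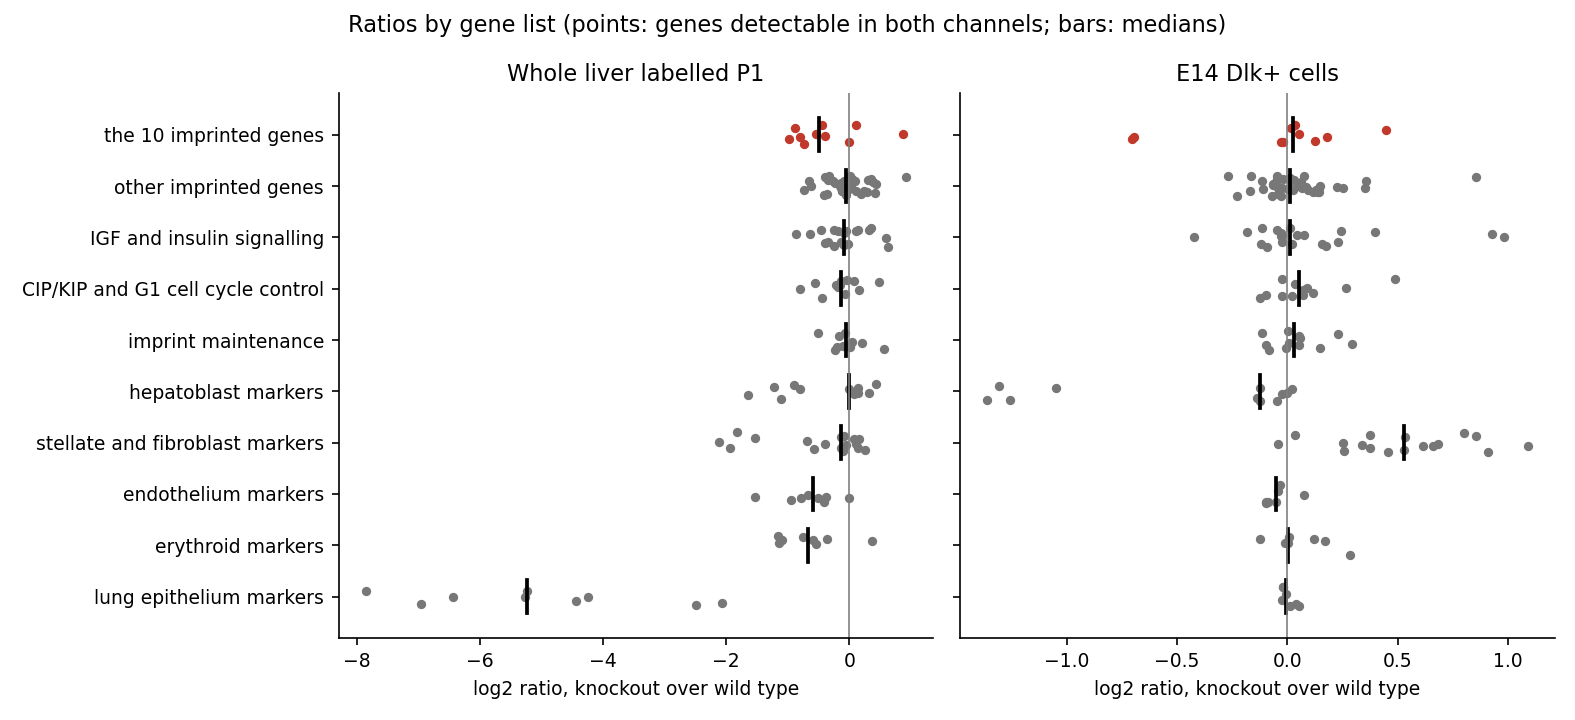
Log2 ratio of knockout over wild type by gene list in P1 whole liver (left) and E14 Dlk+ cells (right, on a narrower axis), with a point for each gene detectable in both channels and a bar at the median. The 10 imprinted genes (red) have a median of -0.49 in P1 liver, where lung epithelial markers have -5.24, and of 0.03 in E14 cells, where stellate and fibroblast markers have 0.53.

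Dlk1, Meg3, Igf2r, Plagl1, Cdkn1c and Mest were dimmer in P1 liver than in the E14 cells in both genotypes, whereas Igf2, H19 and Grb10 stayed within 2-fold. Channels of the same dye were set against each other after scaling between arrays, each probe only against itself. In the knockout channels 6 of the 10 genes were at least 2-fold lower in P1 liver, which held for 6.31% of 12005 genes, and in the wild-type channels 7, which held for 4.85%. Tissue, sorting, stage and array differ together here and cannot be told apart. None of the 10 was at least 2-fold higher, which 6.19% of genes were in the knockout and 6.67% in the wild-type channels. With blank-subtracted, median-scaled channels the counts of 6 and 7 lower were the same, against 13.7% of genes for the knockout and 15.9% for the wild type, and again none was higher, against 13.4% and 12.1%.

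Dlk1 differed most, at -5.59 in the knockout and -5.73 in the wild-type channels, so its level was 48.3-fold and 53.2-fold higher in the E14 cells, which were sorted for it. Cdkn1c followed at -4.68 in the knockout and -4.08 in the wild-type channels. Plagl1 (-3.43 in knockout, -2.51 in wild type), Meg3 (-3.19 in knockout, -2.32 in wild type), Mest (-3.07 in knockout, -1.82 in wild type) and Igf2r (-2.94 in knockout, -2.53 in wild type) were lower in P1 liver as well. Dlk1 is the sort antigen, and the part of the sort in the levels of the other 5 genes was not tested.

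Igf2, H19 and Grb10 stayed within 2-fold between the arrays. Igf2 was at -0.97 in the knockout and -0.69 in the wild-type channels, and H19 at -0.58 in the knockout and -0.84 in the wild-type channels, both from readings near the top of the range in the E14 cells. Grb10 lay near the thresholds in all 4 channels. Peg3 was at -0.48 in the knockout and -1.22 in the wild-type channels, past 2-fold in the wild type and short of it in the knockout, which restates its ratios of 0.87 in P1 liver and 0.13 in E14 cells. Mest had ratios of -0.81 in P1 liver and 0.45 in E14 cells, on opposite sides of 0, and the difference was not tested.

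**Figure D5:**
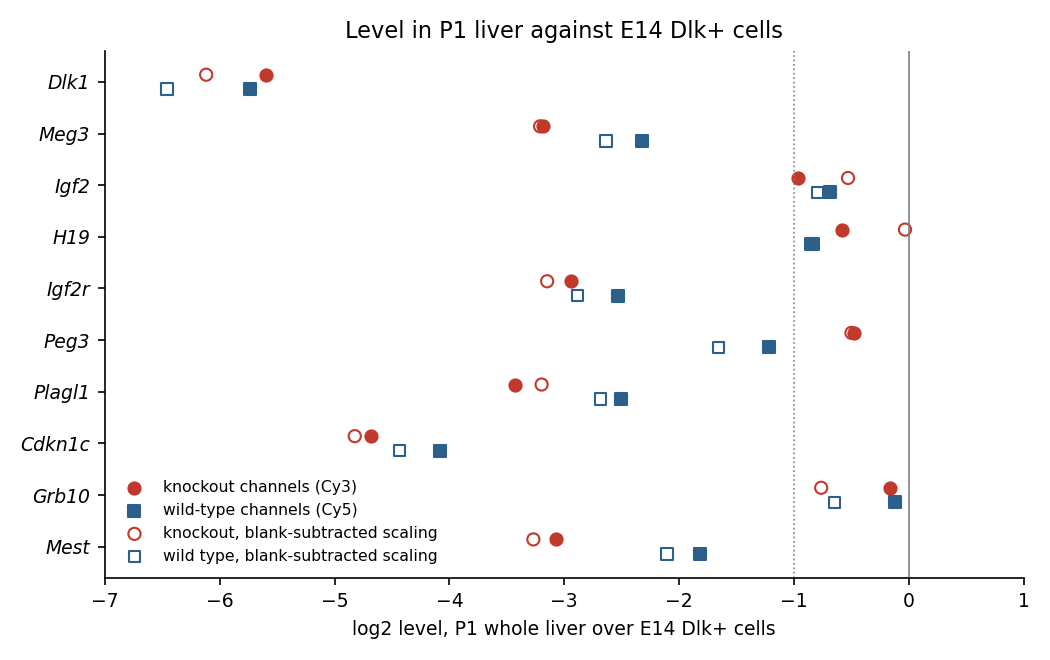
Log2 level in P1 whole liver over E14 Dlk+ cells for each imprinted gene, for knockout (circles, upper) and wild-type channels (squares, lower), after loess and Aquantile scaling (filled) and after blank subtraction and median scaling (open). Dlk1 and Cdkn1c lie farthest to the left, at -5.59 and -4.68 in the knockout channels, and Igf2, H19 and Grb10 lie within 2-fold of 0.

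Genes whose levels ran most like those of Dlk1, Igf2 and H19 over the 4 channels were sought among 12005 genes by the Euclidean distance of their centred log2 levels. For Dlk1 they were Cited1 (distance 0.336), Car3, Mogat2, Pnliprp1 and Spink1 (1.93). Cited1 was lower in P1 liver by a log2 difference of -5.87 in the knockout and -6.11 in the wild-type channels, close to the values of Dlk1. For Igf2 they were H2ac15 (0.210), P4hb, H2ac10, Mgst3 and Guca1a (0.426), and H19 lay at 0.402. For H19 they were Mthfd2 (0.138), Pnoc, Rpl39, Arf1 and Hadh (0.320). The levels rest on 4 channels of 2 arrays, and the distance is a description.

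Beyond the 10 genes, 50 of 61 other imprinted genes were on the arrays. In the E14 cells 44 were detectable in both channels, with a median of 0.01. Of these, 1 was at least 1.5-fold higher and 0 lower, against 0.307% and 0.22% of all genes. The higher one was Dcn, the proteoglycan decorin, at 0.86, which is also a stromal marker, followed in size by Gatm (0.36), Impact (0.35) and Ascl2 (-0.27). In P1 liver 41 were detectable, with a median of -0.05. Of these, 1 was at least 1.5-fold higher and 3 lower, against 2.85% and 4.12% of all genes. The higher one was Impact, a translation regulator, at 0.92 (1041 in knockout and 372 in wild-type liver), and the lower ones were Cd81 (-0.73), Airn (-0.66) and Osbpl5 (-0.62). Airn is transcribed across Igf2r from the other strand and silences its paternal allele in the mouse.

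Neighbours of the 10 genes, named here by position after their values were seen, varied around them. Zim1, next to Peg3, had a ratio of 0.39 in P1 liver and 0.25 in E14 cells, from dim signals of 119 in knockout and 58.3 in wild-type P1 liver, while Usp29 was not detectable. On the distal chromosome 7 domain of Cdkn1c, Cd81 and Osbpl5 were at least 1.5-fold lower in the P1 knockout. Osbpl5 was dim, at 92.6 in knockout and 86.6 in wild-type P1 liver, and stood at 0.06 with the local background. Phlda2 (-0.37), Ascl2 (-0.35), Tssc4 (-0.27), Slc22a18 (-0.14), Nap1l4 (-0.08), Tspan32 (-0.03) and Kcnq1 (0.11) did not reach that size. Ddc, beside Grb10, was at 0.28 in P1 liver and Copg2, beside Mest, at 0.19. Rtl1, from the domain of Dlk1 and Meg3, read 95.1 in knockout and 57.8 in wild-type P1 liver, close to the thresholds, and was not detectable in the E14 cells.

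The IGF pathway around Igf2 and Igf2r differed most in the genes of binding proteins. Of 22 listed genes 21 were detectable in the E14 cells, with a median of 0.01. At least 1.5-fold higher were 2 and lower 0, against 0.307% and 0.22% of all genes. The 2 were the binding protein genes Igfbp3 (0.98) and Igfbp7 (0.93), with Igfbp1 at -0.42 and the receptor gene Igf1r at 0.40. In P1 liver 20 were detectable, with a median of -0.09, 2 higher and 2 lower, against 2.85% and 4.12% of all genes. Igfbp1 (0.63) and the RNA-binding protein gene Igf2bp3 (0.59) were higher, and Igfbp7 (-0.86) and Igfbp2 (-0.64) lower. Igfbp1 was read as a whole number in the P1 knockout, at 34323 against 12842 in wild type. Among 12 genes of G1 cell cycle control, which includes the relatives of Cdkn1c, 0 reached 1.5-fold in the E14 cells. In P1 liver 1 did, Ccnd2 at -0.80, where 4.12% of all genes were at least 1.5-fold lower. Rb1 (-0.56), Cdkn1a (0.48) and Cdk2 (-0.44) followed in size.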

How the data were processed

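Amplified amino allyl RNA carried the dyes, per the labels' protocols. Deposited files from the scanner give intensities of spots and their local background in either channel, joined from 3 scanner gains, per the file headers. The authors' deposited table gives log2 values, KO divided by WT. Log2 ratios taken after subtracting the mean of trimmed blanks from each channel were set against these values, over probes detectable in both channels. The correlation was 0.999995 on the E14 and 1 on the P1 array, so the direction is known. The deposited columns had medians of 7.21e-07 on the E14 and -2.74e-05 on the P1 array, close to 0.

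The tool was limma 3.58.1 (R 4.3.3), with normexp at an offset of 50 on spot signals and no use of local background, which was high beside bright spots, then loess (span 0.3) with control spots at weight 0, and the mean over probes of a gene. The script was tested on simulated data. Blank thresholds left out 5 percent of the 2736 blank spots at each end, and 4 flagged probes of the E14 array were dropped. The offset shrinks ratios of dim genes. Of 23473 probes, 16631 had a gene symbol, 3947 of them updated through RefSeq (GRCm38.p6). The files name no build.

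Genes named are all 10 members, up to 4 of each list by size of ratio, the 5 genes nearest to Dlk1, Igf2 and H19, and Mmp14. Named outside this rule, after their values were seen, were neighbours of the members, Ptprc, Tfrc, Zfp57, Postn, Hand2, Met, Hnf4a, Tet1 and Tet3. Members and lists were chosen with earlier results of these data known, and lists are described by counts and medians with no test. Channels were scaled between arrays by Aquantile. The 10 alternatives tried concern background, offset, normalisation, span, readings at the top of the range, detection and probe choice.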

Additional observations from a re-analysis of the deposited data

Results flagged for a closer look

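Among the listed genes, 3 were at least 1.5-fold different in opposite directions on the 2 arrays, and none of the 10 imprinted genes was. Tagln, a smooth muscle gene, had ratios of -1.54 in P1 liver and 0.68 in E14 cells, a difference of -2.22. For Igfbp7, a secreted IGF binding protein, the ratios were -0.86 in P1 liver and 0.93 in E14 cells, a difference of -1.79. Postn, the matrix protein periostin, stood at -0.70 in P1 liver and 0.62 in E14 cells, a difference of -1.31. With 1 array per comparison these differences were not tested, and whole liver and sorted cells differ in cell makeup.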

How the results depend on the processing

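Of the 10 alternatives, 3 (both detection settings and the brightest probe) leave a detectable gene with 1 probe as it is. Under median centring, which leaves a slope of the ratio with brightness, 7 of the 10 genes were at least 1.5-fold higher in the E14 cells, where 24.9% of all genes were. In that setting 0 were lower in the E14 cells, against 0.0394% of all genes, and 0 in P1 liver, against 2.52%. The medians of the 10 genes were -0.21 in P1 liver and 0.73 in the E14 cells, and H19 (0.066) and Igf2 (0.056) changed sign in the E14 cells. With the local background used in normexp, 1 gene was higher and 1 lower in the E14 cells, against 3.84% and 0.244% of all genes. In P1 liver the median was then -0.092 and Igf2 stood at 2.80. In the E14 cells 1 gene was lower with an offset of 16 (Igf2, while H19 was at -0.58), against 0.22% of all genes. With whole-number readings left out, which removes H19, 1 was lower as well, against 0.118%. The cause of the other changes was not tested. The other 56 of 66 alternative counts and medians stayed within 1.5 times the count or within the SD between probes of a gene, many of them under settings that could not change them. Among these, the P1 count of 4 lower genes was 3 in the authors' table (12.2% of all genes) and with the local background (3.59%). It was 5 with an offset of 16 (6.39%) or a span of 0.6 (4.18%). With the local background the 3 lower P1 genes were Mest (-1.03), H19 (-0.76) and Cdkn1c (-0.67). Of the 4 lower genes after loess without it, only Mest was among them, with Meg3 at -0.22 and Plagl1 at -0.49. The 1 higher P1 gene with the local background, where 6.93% of all genes were higher, was Igf2 in place of Peg3. Brightness limits Igf2 and H19, which are read near the top of the range, and dimness limits Grb10. No paired analysis was possible because each comparison has 1 array and no replicate number to pair.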

Other observations

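Fetal liver genes that are silenced after birth, with their regulators, had a median near 0 in P1 liver after loess. Of 8 such genes on the arrays, 7 were detectable there, with a median of 0.03 and 0 at least 1.5-fold changed in either direction, and Lpl, the lipoprotein lipase gene, was at 0.48. Afp, the fetal serum albumin relative, stood at 0.14 in P1 liver and at -1.26 in the E14 cells, and its readings were whole numbers in all channels but the P1 wild type, so both ratios rest on readings at the top of the range. The proteoglycan gene Gpc3 was at -0.10 in P1 liver and 0.12 in E14 cells.

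Genes that keep imprints, such as the maintenance methyltransferase Dnmt1 and its partner Uhrf1, stayed short of 1.5-fold after loess without the local background. In the authors' deposited table Dnmt3a (0.80) and Tet1 (-0.81) passed it in P1 liver, and Tet3 (-0.75) in the E14 cells. With the local background Trim28 (0.76 in P1 liver, 0.98 in E14 cells) and Mbd3 (0.99 in P1 liver, 0.66 in E14 cells) did. Of 14 on the arrays 12 were detectable on each, with medians of -0.05 in P1 liver and 0.03 in the E14 cells. In P1 liver the lowest was Dnmt1 at -0.51 and the highest the de novo methyltransferase gene Dnmt3a at 0.56, and in the E14 cells the highest was Uhrf1 at 0.29. Zfp57, whose product binds TGCCGC, was not detectable in both channels of either array. The list of 17 genes on the arrays from the network around Plagl1 shares the 10 genes described above, and its median was -0.33 in P1 liver and 0.03 in E14 cells.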
